A study of Mus musculus with 2 samples.

Results

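The adipogenic transcription factors and C/EBPs of the mouse omentum are described here as 10 genes, Pparg, Cebpa, Cebpb, Cebpd, Klf15, Ebf2, Zfp423, Stat5a, Ppargc1a and Ppara. They were chosen by gene symbol from 24346 genes in all, and all 10 were listed in both libraries. RNA-seq was performed on whole omentum, the abdominal fat sheet that carries the lymphoid clusters known as milky spots, 5 days after injection of diphtheria toxin (DT). There was 1 library from wild-type (WT) mice and 1 from Postn-DTR mice, both DT-treated. Postn-DTR mice, labelled DTR, were heterozygotes (Postn Dtr/+) made by CRISPR/Cas9 on a C57BL/6 background, with a DT receptor inserted into the Postn gene, so that cells using the Postn promoter, among them the Aldh1a2+ fibroblastic reticular cells of milky spots, are ablated by DT. The Postn promoter is also used by mesenchymal cells outside the omentum, and age, sex and whether a library came from 1 mouse or a pool were not given in the sources used here. With 1 library per genotype no test was possible, no p-value is given and replicate error is unknown throughout.

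In adipocyte formation, C/EBPβ and C/EBPδ are known as early factors that turn on Pparg and Cebpa, and PPARγ and C/EBPα then keep each other and the mature adipocyte genes on. C/EBPβ and C/EBPδ also drive acute-phase and cytokine genes in inflammation, and macrophages and neutrophils express C/EBP genes as well, so the family is shared between fat and the innate immune response. The other genes act around this core. EBF2 and ZFP423 mark or commit adipocyte progenitors, KLF15 and STAT5A support differentiation, PPARα drives fatty acid oxidation, and PGC-1α (Ppargc1a) is a coactivator of mitochondrial genes.

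The start regions of 4 genes are shown, Cebpb and Klf15 from those that were higher in Postn-DTR and Cebpa and Pparg from those that were lower. RefSeq promoters (GRCm38.p6) were matched for 8 of the 10 genes, and Cebpd and Ebf2 had no entry. Each line holds the 150 bases before an annotated transcript start, read 5′ to 3′ on the plus strand, and capitals mark matches on either strand to any of 8 short motifs. These were the TATA box with the letters TATAAA, the CCAAT box, the GC box (GGGCGG), cAMP response element half-site (TGACG), E-box (CACGTG), C/EBP half-site (ATTGC), glucocorticoid receptor half-site (AGAACA) and nuclear receptor half-site (AGGTCA). The Cebpb stretch is chr2:167688765-167688914, the Klf15 stretch chr6:90462426-90462575, the Cebpa stretch chr7:35119143-35119292, and the Pparg stretch chr6:115421916-115422065, which lies in an intron of longer Pparg transcripts and precedes the start of the shorter one.
Cebpb: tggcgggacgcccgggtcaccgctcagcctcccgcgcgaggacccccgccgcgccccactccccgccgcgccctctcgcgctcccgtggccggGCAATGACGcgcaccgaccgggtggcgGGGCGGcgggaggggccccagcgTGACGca
Klf15: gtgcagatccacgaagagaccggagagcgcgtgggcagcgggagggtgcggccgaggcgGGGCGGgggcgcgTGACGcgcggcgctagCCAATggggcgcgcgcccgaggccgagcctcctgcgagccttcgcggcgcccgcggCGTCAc
Cebpa: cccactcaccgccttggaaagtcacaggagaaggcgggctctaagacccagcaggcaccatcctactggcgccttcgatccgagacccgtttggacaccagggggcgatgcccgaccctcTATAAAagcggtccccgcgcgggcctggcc
Pparg: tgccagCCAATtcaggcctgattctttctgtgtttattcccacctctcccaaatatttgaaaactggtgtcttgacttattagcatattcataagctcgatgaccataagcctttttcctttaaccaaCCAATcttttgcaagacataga

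The Cebpb stretch held 2 cAMP response element half-sites, 53 and 7 bases before the start, and a C/EBP half-site 57 bases before it that overlaps the first. Klf15 likewise held 2 cAMP response element half-sites, 78 and 6 bases before the start, with a CCAAT box between them. A GC box lay 30 bases before the Cebpb start and 91 before that of Klf15. The Cebpb and Cebpa stretches lie within genes annotated on the opposite strand, Tmem189 and Gm45091, but in no exon of them, and no other gene overlaps that of Klf15. The Cebpa stretch held a TATA box, 30 bases before the start, and no other match, and the Pparg stretch shown held 2 CCAAT boxes. Pparg has 2 further annotated starts that are not shown. The 150 bases before the start at 115361144 held a nuclear receptor half-site, and those before the start at 115362349 held a TATA box, a CCAAT box, a GC box and a nuclear receptor half-site. Over all 32851 promoter windows of 300 bases, 20.8% held the cAMP response element half-site, 26.4% the C/EBP half-site, 37.4% the CCAAT box and 13.6% the TATA box. The other shares were 35.7% for the GC box, 7.15% for the E-box, 19.0% for the glucocorticoid receptor half-site and 16.3% for the nuclear receptor half-site. These windows run from 250 bases before the start to 50 after it. They are longer than the 150-base stretches, so the shares do not apply directly to the matches described. A match describes letters only and is not evidence of binding.

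Expression was deposited as FPKM, a fragment count scaled to transcript length and to library size. Differences are given on the log2(FPKM + 1) scale, with WT subtracted from Postn-DTR and called the change, which understates differences of low genes, and a fold beside a single gene is a ratio of the FPKM themselves. Counts of genes at least 2-fold higher or lower use the change, at 1 or more or -1 or less. From the steps of low values the libraries were estimated at about 23300000 and 24100000 fragments, so that 44 to 7592 fragments stood behind each value of the 10 genes. The 95% intervals beside the ratios (exact Clopper-Pearson, on these estimated fragments) cover counting error only. For background, 13127 genes whose FPKM averaged 1 or more over both libraries were compared. Their median change was 0.02, and the 5th and 95th percentiles were -0.79 and 0.87. WT held pancreatic acinar transcripts, with a summed FPKM of 12262 over 25 marker genes against 20.4 in Postn-DTR. When these genes were left out and both libraries were set to equal totals, the median of all genes moved by -0.315, so a small change of a single gene cannot be told apart from scaling.

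The C/EBP genes differed in opposite directions. In whole tissue, fewer cells of a type and less RNA per cell cannot be told apart, here or for the other genes. Cebpb (ENSMUSG00000056501, chromosome 2, 167688915 to 167690418, plus strand, GRCm38), an early adipogenic and acute-phase factor encoded by a single exon, was at 39.0 FPKM in WT against 110.3 in Postn-DTR. It was 2.83-fold higher in Postn-DTR (interval 2.65 to 3.03), a change of 1.48, and 1.77% of all genes compared had a change as high. Cebpd (ENSMUSG00000071637, chromosome 16, 15887286 to 15891031, plus strand), its partner in both settings, was at 15.9 FPKM in WT against 68.2 in Postn-DTR. This 4.29-fold difference (interval 4.04 to 4.56) was the largest increase among the 10 genes, with a change of 2.03 and 0.96% of all genes as high. Cebpa (ENSMUSG00000034957, chromosome 7, 35119293 to 35121928, plus strand), which maintains the mature adipocyte state, went the other way, at 134.4 FPKM in WT against 105.7 in Postn-DTR. Its change was -0.34 (ratio 0.786, interval 0.76 to 0.813), inside the 5th to 95th percentile of all genes, and 18.4% of all genes were as low.

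**Figure D1:**
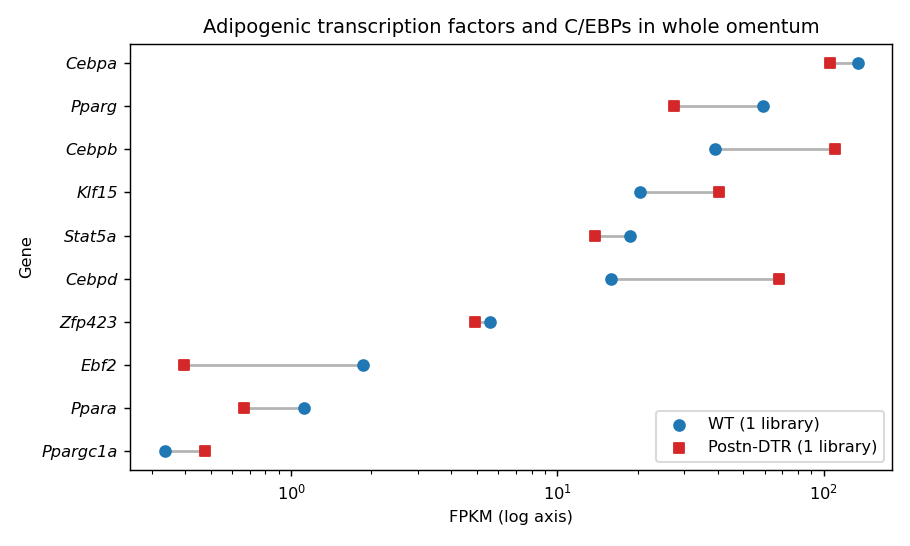
FPKM on a log axis for each of the 10 genes in the WT library (circles) and the Postn-DTR library (squares), 1 library per genotype, ordered by the WT value. Cebpb and Cebpd lie to the right in Postn-DTR, at 110.3 and 68.2, and Pparg and Ebf2 to the left, at 27.3 and 0.397.

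The FPKM is scaled per length, so levels can also be set side by side within a library, where library scaling plays no part. The ratio of Cebpb to Cebpa was 0.29 in WT and 1.04 in Postn-DTR, a 3.6-fold difference. For Cebpd to Cebpa it was 0.118 and 0.646, a 5.46-fold difference. In WT the most abundant C/EBP transcript was thus Cebpa, whereas in Postn-DTR Cebpa and Cebpb were at nearly the same level. Of the summed FPKM of 6 C/EBP family genes, 232.6 in WT and 330.3 in Postn-DTR, Cebpa made up 57.8% in WT and 32.0% in Postn-DTR. The share of Cebpb was 16.8% and 33.4%, and that of Cebpd 6.84% and 20.7%. The remaining family genes were nearly level. Cebpg, a bZIP partner without an activation domain, had an FPKM of 19.1 and 17.8, and Ddit3, the stress-induced family member CHOP, had 23.6 and 27.8. The change of Ddit3 was 0.23 and became -0.10 at equal totals. Cebpe, a factor of granulocyte maturation, was at 0.621 and 0.561, too low to be compared.

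**Figure D2:**
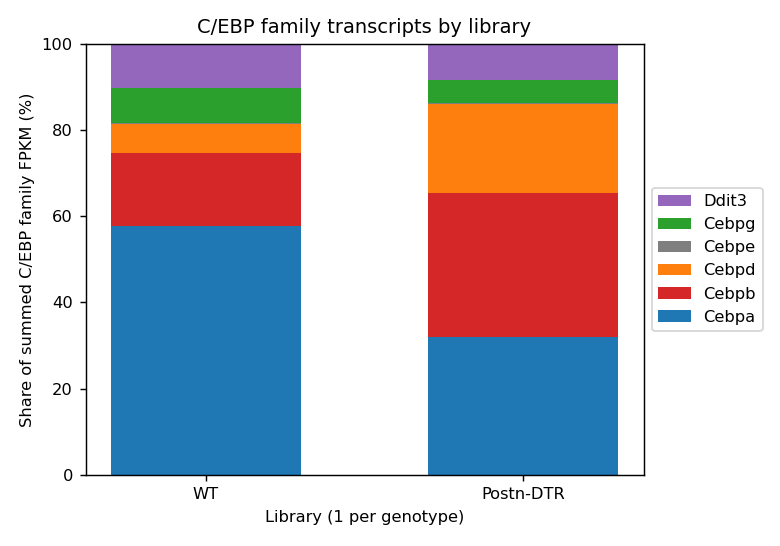
Share of the summed FPKM of the C/EBP family genes taken by each gene in the WT and the Postn-DTR library (stacked bars from 0 to 100%, 1 library each). Cebpa takes 57.8% in WT and 32.0% in Postn-DTR, and Cebpb takes 16.8% and 33.4%.

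Pparg (ENSMUSG00000000440, chromosome 6, 115360951 to 115490399, plus strand), the nuclear receptor required for adipocyte formation, was at 59.1 FPKM in WT against 27.3 in Postn-DTR. It was 2.16-fold lower in Postn-DTR, a change of -1.09 (ratio 0.462, interval 0.429 to 0.497), and 2.61% of all genes had a change as low. One value is given per gene, so its transcripts from different starts cannot be separated. Pparg was lower by more than its partner Cebpa, and the ratio of Pparg to Cebpa was 0.44 in WT and 0.258 in Postn-DTR. It was also lower by more than Adipoq, the adipocyte hormone gene, with a ratio of Pparg to Adipoq of 0.0619 and 0.0429. For Cebpa to Adipoq the ratio was 0.141 and 0.166.

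The other PPAR genes were at lower levels than Pparg in both libraries. Ppara (ENSMUSG00000022383, chromosome 15, 85734983 to 85802819, plus strand) was near the lower limit of measurement, with an FPKM of 1.11 and 0.663, or about 72 and 44 fragments. Its ratio of 0.595 had an interval of 0.397 to 0.872. Ppard, the broadly expressed PPARδ gene, had an FPKM of 16.8 and 16.3. The ratio of Ppard to Pparg was therefore 0.284 in WT and 0.597 in Postn-DTR. Ppargc1a (ENSMUSG00000029167, chromosome 5, 51454250 to 51567726, minus strand) was the lowest of the 10 genes in WT, at 0.336, and was at 0.475 in Postn-DTR. With about 49 and 72 fragments, its ratio of 1.41 had an interval of 0.975 to 2.09, so no difference was detectable at this depth. Ppara and Ppargc1a had a mean FPKM under 1 and were not among the genes compared.

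Klf15 (ENSMUSG00000030087, chromosome 6, 90462576 to 90475238, plus strand), a glucocorticoid-induced factor of adipocytes and of amino acid catabolism, was at 20.4 FPKM in WT against 40.6 in Postn-DTR. The ratio of 1.99 (interval 1.84 to 2.14) and the change of 0.96 placed it just under the 2-fold limit, and 4.27% of all genes were as high. Stat5a (ENSMUSG00000004043, chromosome 11, 100859351 to 100885169, plus strand), which transmits growth hormone and cytokine signals, had an FPKM of 18.8 and 13.9, a change of -0.41. Its neighbour and paralog Stat5b was at 19.1 and 15.7, and reads in the parts they share are uncertain.

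Both progenitor factors were at low levels and differed in size of change. Ebf2 (ENSMUSG00000022053, chromosome 14, 67233292 to 67430918, plus strand), which is selective for brown and beige adipocyte precursors, was at 1.85 FPKM in WT against 0.397 in Postn-DTR. Its FPKM was 4.67-fold lower, on about 198 and 44 fragments, with a ratio of 0.214 (interval 0.151 to 0.299). The change on the log2(FPKM + 1) scale was -1.03, since the added 1 weighs heavily at this level, and with an added 5 it was -0.34. Zfp423 (ENSMUSG00000045333, chromosome 8, 87661810 to 87959595, minus strand), a determinant of preadipocytes, was nearly level at 5.59 and 4.90, a change of -0.16 (ratio 0.877, interval 0.777 to 0.988). The related factors Ebf1 and Ebf3, named after their values were seen, had an FPKM of 13.8 and 8.44, and of 6.93 and 3.45.

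Genes on the opposite strand that also have FPKM overlap 4 of these genes, Cebpb, Cebpd, Stat5a and Ebf2 (for Ebf2, 4930438E09Rik and Gm6878). The kit named in the labels marks strand, but the paper's methods name another kit. Whether strand was used for the FPKM was not given in the sources used here, so reads of such partners may not have been separated. Tmem189, opposite Cebpb, had an FPKM of 40.1 and 79.4. Spidr, opposite Cebpd, was at 5.63 and 6.13, well under the level of Cebpd. Stat3, opposite Stat5a, was at 66.5 and 109.9.

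The order of the 10 genes differed between the libraries. In WT it ran Cebpa, Pparg, Cebpb, Klf15, Stat5a, Cebpd, Zfp423, Ebf2, Ppara and Ppargc1a. In Postn-DTR it ran Cebpb, Cebpa, Cebpd, Klf15, Pparg, Stat5a, Zfp423, Ppara, Ppargc1a and Ebf2. Among the 13127 genes compared, Cebpd stood at rank 5190 by FPKM in WT and 1372 in Postn-DTR, Cebpb at 2251 and 826, and Klf15 at 4229 and 2344. Pparg stood at 1427 and 3400, while Cebpa stayed among the abundant transcripts at 580 and 860. With 1 library each, no spread is known for any neighbours in these orders.

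Of the 10 genes, 8 passed the minimum of a mean FPKM of 1. At least 2-fold higher in Postn-DTR were 2 of these 8, Cebpb and Cebpd, where 3.88% of all genes compared were at least 2-fold higher. At least 2-fold lower were 2 of 8, Pparg and Ebf2, where the share over all genes was 3.12%. Ebf2, at 0.397 in Postn-DTR, passed the minimum only through its WT value of 1.85, so its call is not independent of that minimum. The median change of the 8 genes was -0.25. It describes a group of mixed direction, with 3 genes higher and 5 lower. All 10 genes kept their direction under each of the 4 other scalings and 3 other pseudocount settings. A pseudocount cannot reverse a direction, and all 4 scalings moved the changes down. Only the genes higher in Postn-DTR could thus have reversed, and for the lower genes the outcome was fixed. At a limit of 1.5-fold, 3 of 8 were higher, with Klf15 added, where 9.86% of all genes were, and 2 of 8 were lower, where 8.84% were. Over all genes, 55.4% of those past 2-fold were higher under the deposited scaling, and 27.5% at equal totals. At equal totals the change of Cebpb was 1.14, that of Cebpd 1.70, that of Klf15 0.63, that of Cebpa -0.68 and that of Pparg -1.42. The count of lower genes rested on the setting for Ebf2 and Pparg. With an added 5 it was 0 of 8, and Pparg, at -0.99, then lay just inside the limit.

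**Figure D3:**
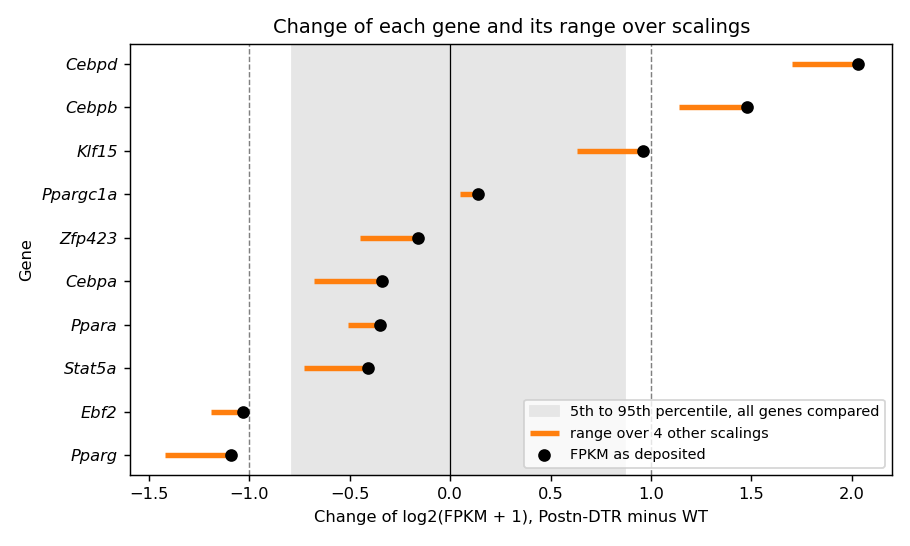
Difference in log2(FPKM + 1), WT subtracted from Postn-DTR, for the 10 genes (points), with the range over the 4 other scalings (bars), the 5th to 95th percentile of all 13127 genes compared (grey band) and the 2-fold limits (dashed). Cebpd, Cebpb, Ebf2 and Pparg lie outside the grey band and the 2-fold limits under the deposited scaling, and Klf15 lies between the band and the limit.

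The partners and targets of these factors were read from 14 lists, and values are given as FPKM in WT and then in Postn-DTR. For every list count below, the share of all genes compared was 3.88% at least 2-fold higher and 3.12% at least 2-fold lower. Of 18 other factors that promote adipogenesis, 2 were at least 2-fold higher, 0 were at least 2-fold lower and 16 lay between, with a median change of -0.17. By the ratio of FPKM alone, Ebf3 was 2.01-fold lower. The 2 were Kruppel-like factors. Klf9, a glucocorticoid-induced gene, had an FPKM of 39.4 and 85.7, a change of 1.10 that was 0.77 at equal totals, and Klf5, an early target of C/EBPβ and C/EBPδ, had 1.10 and 5.72. The most abundant of the 18 in WT were Srebf1 (72.3 and 45.0) and Nr1h3 (49.95 and 41.1), which encode the lipogenic factors SREBP1 and LXRα. Of 10 factors that restrain adipogenesis, 1 was at least 2-fold higher and 1 at least 2-fold lower, with a median of -0.09. The anti-adipogenic Klf2 had an FPKM of 96.2 and 247, and Snai2 had 3.82 and 1.38. Wwtr1, which encodes the coactivator TAZ, had 24.2 and 20.9. Of 15 PPAR partners and coregulators 0 reached a change of 1 in either direction, and their median of 0.09 became -0.22 at equal totals. With an added 0.1 or none, 1 was at least 2-fold higher. This was the PGC-1β gene Ppargc1b, named after its values were seen, at 0.460 and 1.77, a 3.84-fold ratio. Ppargc1b passed the minimum FPKM only through Postn-DTR. The most abundant of them, Hdac3 and Rxrb, had an FPKM of 36.1 and 37.7, and of 27.5 and 32.7.

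The adipocyte target genes of PPARγ and C/EBPα were lower in 15 of 20 and at least 2-fold lower in 6, and 0 were at least 2-fold higher. Their median change was -0.67, and over the scalings it ran from -1.01 to -0.69. Agpat2, an enzyme of triglyceride synthesis, had an FPKM of 263 and 78.3. Slc2a4, the insulin-responsive glucose transporter GLUT4, had 44.8 and 13.7, and Gpd1 had 358 and 128. Fabp5 (199.6 and 86.3) and the glycerol channel gene Aqp7 (13.2 and 5.68) were also at least 2-fold lower. Both were named after their values were seen. At equal totals 10 of the 20 were at least 2-fold lower, where 811 of all 13127 genes compared were. The members of the list did not share 1 direction. Fabp4, the fatty acid binding protein of adipocytes and the most abundant gene of the list, had 4879 and 6519, a change of 0.42 that was 0.08 at equal totals. The brown and beige adipocyte genes, to which Ebf2 belongs by function, had 3 of 7 genes compared, of which 1, Cox8b, was at least 2-fold lower. Cox8b was at 114 and 31.8, Cox7a1 at 4.70 and 2.77, and Cidea at 4.46 and 1.90, a change of -0.91. Ucp1, the defining gene of brown fat, was too low to be compared, at 0.0595 and 0.288. Cidea and Ucp1 were named after their values were seen.

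Of the adipocyte progenitor genes, 9 were compared, 0 were at least 2-fold higher and 1 was at least 2-fold lower. This was Pdgfrb, at 41.3 and 17.3. Ly6a and Cd34, the most abundant, had an FPKM of 345 and 399, and of 236 and 243. The median of 0.19 became -0.14 at equal totals.

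Target genes of fatty acid oxidation linked to PPARα were higher in 13 of 16, and 3 were at least 2-fold higher, with 0 at least 2-fold lower and a median of 0.40 (0.14 at equal totals). Of the 13, Cpt1a (-0.08), Hadhb (-0.22), Acot2 (-0.18) and Slc25a20 (-0.21) had a negative change at equal totals, and all but Hadhb are named after their values were seen. Pdk4, the kinase that spares glucose during fasting, had an FPKM of 14.3 and 75.9. Acot1 had 1.42 and 6.85, and Cyp4a10 had 0.159 and 1.96. Cyp4a10 passed the minimum FPKM only through Postn-DTR, so its call is not independent of it. The abundant β-oxidation enzymes differed little, with Hadhb at 109.6 and 119 and Acadl at 104 and 147. Ppara itself was lower in the same library. Of 14 partners and mitochondrial targets of PGC-1α 0 reached 2-fold, with a median of -0.17. Atp5b and Cox4i1, the most abundant, had an FPKM of 552 and 455, and of 552 and 716.

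The list of acute-phase and inflammatory targets of C/EBPβ and C/EBPδ had 12 of 15 genes at least 2-fold higher and 1 at least 2-fold lower, with a median change of 3.38. The median was 2.12 with an added 5 and 2.79 without the minimum FPKM. Several of these genes are among the largest increases of the series, so the list adds no independent support. Among the genes with the largest changes, Saa3 had an FPKM of 259 and 22469, and the macrophage arginase gene Arg1 had 4.68 and 427. Both serum amyloid genes Saa1 and Saa2 were below 1 in WT, with 0.318 and 677 and with 0.526 and 627. Hp, which encodes haptoglobin and is made by adipocytes as well as liver, was the most abundant in WT, with 1204 and 5256. The cytokine gene Il6 was low in WT, with 0.436 and 5.58, and so was Csf3, named after its values were seen, with 0.0739 and 10.1. Saa1, Saa2, Il6 and Csf3 passed the minimum FPKM only through Postn-DTR, where they were high, so their 2-fold calls are not independent of it. Orm1, an acute-phase gene with known C/EBP sites that was named after its values were seen, was the 1 at least 2-fold lower, with 182 and 22.6. In all, 3 of the 15 were lower.

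Signals known to induce Cebpb, Cebpd and Klf15 were listed as well. These lists were also chosen with earlier results of these data known, so they add no independent support. Whether any of these signals acted was not tested. Of 10 genes of the IL-6 family and STAT3, 2 were at least 2-fold higher, 0 were at least 2-fold lower and the median was 0.56. Socs3, the feedback inhibitor induced by STAT3, had an FPKM of 17.8 and 143. The receptor gene Il6st was at 73.8 and 96.1, a change of 0.38 that was 0.04 at equal totals. Of 9 glucocorticoid response genes, 8 were at least 2-fold higher and all 9 were higher, with a median of 1.51 (1.18 at equal totals). At equal totals 6 of the 9 were at least 2-fold higher, where 307 of all 13127 genes compared were. The metallothionein genes Mt1 and Mt2 differed most, with 190.2 and 3963 and with 77.4 and 3543. Fkbp5, a target of the glucocorticoid receptor, had 43.8 and 148, Dusp1 had 42.2 and 228, and Tsc22d3 had 90.8 and 241. The receptor gene Nr3c1, named after its values were seen, was at 22.0 and 14.1. Of 8 receptors and targets of STAT5, 2 were at least 2-fold higher, Socs2 (14.1 and 30.7) and Pim1 (29.8 and 80.1). In this list 0 were at least 2-fold lower. The growth hormone receptor gene Ghr was at 176 and 119, and Igf1 at 44.9 and 27.2. The change of Socs2 was 0.74 at equal totals, and the STAT5 median of 0.04 became -0.28 at equal totals.

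Amino acid catabolism genes linked to KLF15 did not share a direction. Of 10 genes, 2 were at least 2-fold higher and 1 was at least 2-fold lower, with a median of 0.10 that became -0.24 at equal totals. Tat, a glucocorticoid-induced tyrosine aminotransferase, had an FPKM of 0.454 and 6.03, and Prodh had 9.44 and 21.4, with a change of 1.10 that was 0.78 at equal totals. Tat passed the minimum FPKM only through Postn-DTR, so its call is not independent of it. Gpt, an alanine aminotransferase, had 56.3 and 11.7. Bcat2, the branched-chain aminotransferase that KLF15 is known to induce, was at 103 and 138, and Bckdha at 80.2 and 92.4.

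**Figure D4:**
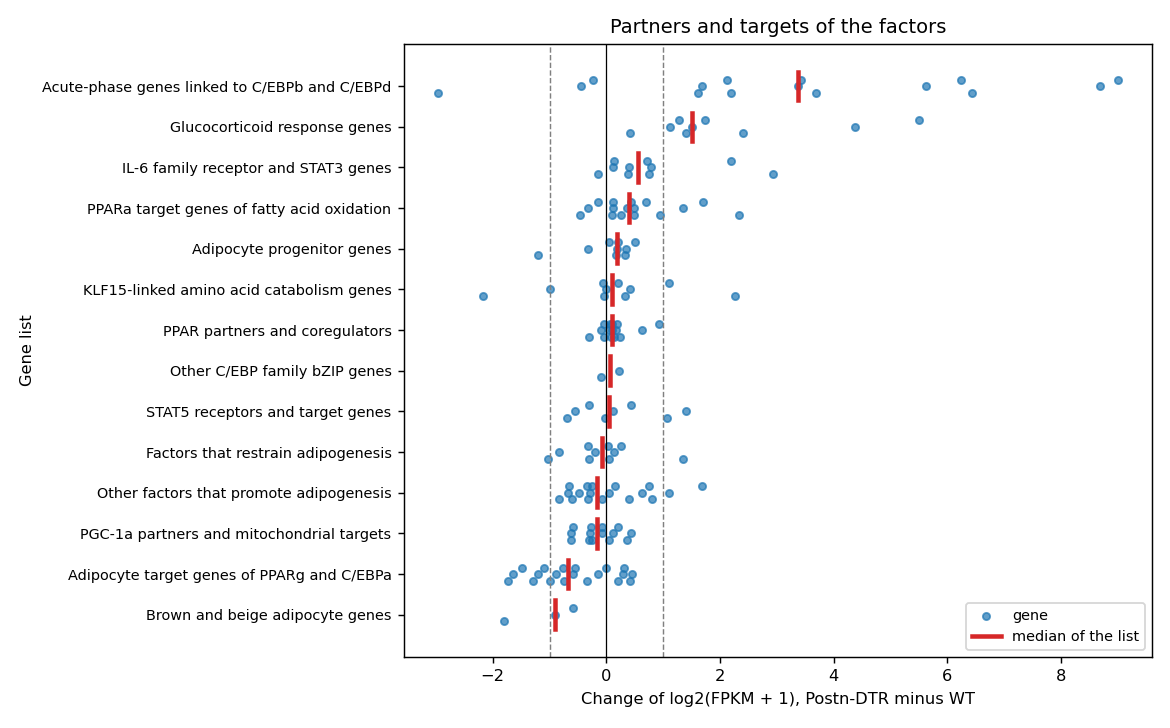
Difference in log2(FPKM + 1), WT subtracted from Postn-DTR, of each gene compared (points) in the 14 lists of partners and targets, with the median of each list (bars) and the 2-fold limits (dashed). The acute-phase and glucocorticoid lists lie highest, with medians of 3.38 and 1.51, and the adipocyte target and brown adipocyte lists lowest, with medians of -0.67 and -0.91. The brown adipocyte median rests on 3 genes and depends on the minimum FPKM. It was -0.58 without the minimum and -1.8 with a minimum of 5.

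Markers of other cells also differed in the same libraries as these genes. Macrophage markers, from cells that also express Cebpb, Cebpa and Pparg, were higher in 10 of 10 genes. Their summed FPKM was 5042 in WT and 8884 in Postn-DTR, and 0 of them were at 0. The most abundant, Lyz2, was at 2459 and 3563. Neutrophil markers were mixed, with 5 higher and 4 lower of 9 genes, summed at 437.1 and 705.2. White adipocyte markers were lower in 5 of 6 genes, with a sum of 10515 and 8054, and 0 of them reached 2-fold. Fibroblast markers were summed at 4279 and 3653, mesothelial markers at 467.6 and 473.7, B cell markers at 486.6 and 332.5 and T cell markers at 81.5 and 36.2. Of 7 hepatocyte markers 3 were compared, among them Cyp2e1 (682 and 1205) and Apoc3 (5.28 and 24.4), while Alb, the defining one, was at 2.17 and 1.22, and skeletal muscle markers were summed at 0.661 and 0.823. The part of these cells in the values of the 10 genes was not tested. The 10 housekeeping genes had a median change of 0.05, which was -0.29 at equal totals.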

How the data were processed

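RNA was measured in 1 WT and 1 DTR library of whole omentum. Per the labels, the RNA came from a miRNeasy extraction and the library kit was TruSeq stranded mRNA. The paper's RNA-seq methods, which open with sorted omental cells, name RNeasy Micro and NEBNext Ultra RNA kits instead. This difference could not be resolved from the sources used here. The authors deposited FPKM, fragments scaled to transcript length and to mapped fragments, with 1 value per gene symbol. The submitters' processing notes name TopHat2 2.1.1, Bowtie2 2.2.8, SAMtools 0.1.18, Cuffdiff 2.2.1 and mm10. The annotation was not given in the sources used here. Scaling to the library makes every FPKM depend on the most abundant transcripts.

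Changes were computed as log2(FPKM + 1), DTR minus WT, in Python 3.11.15 with pandas 2.3.3. Genes averaging 1 FPKM or more over both libraries were compared, and a call was a change of at least 2-fold. The calling was tested on simulated data with counting noise only. The planted changes were larger than the limit and lay in genes well above the minimum FPKM. That test does not cover calls near the limit or at low FPKM. Positions and lengths were taken from GENCODE M21 (GRCm38), and promoters from RefSeq. Depth was estimated from genes with 1 annotated transcript, of which 66.5% of 504 low values in WT and 66.7% of 462 in DTR lay within 0.03 of whole fragments. Among 723 genes with low FPKM in both libraries, 174 shared a ratio of 0.967. Fragments per gene are approximate, since they rest on annotated lengths.

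The genes and lists were chosen with earlier results of these data known. Named genes were the 10 members and those that a rule gave for each list. The rule took all genes past 2-fold and the 2 with the highest WT FPKM. Where a list had over 6 genes, only the 4 largest of the changes past 2-fold were taken. The rule also gave the 3 highest of each marker list, of which only some are printed. A gene that the rule gave is not reported here. The ratios of Pparg to Cebpa, of Pparg and Cebpa to Adipoq and of Ppard to Pparg were added after the values were seen. Other pseudocounts, scalings, minimums and limits were tried.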

Additional observations from a re-analysis of the deposited data

How the results depend on the processing

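All 10 genes kept their direction under 7 alternatives. The 3 pseudocount settings were an added 0.1, an added 5 and no added value, and these cannot reverse a direction. The 4 scalings were equal totals without the acinar genes, an equal 75th percentile, and centring on all genes or on housekeeping genes. All 4 moved the changes down, so only genes higher in Postn-DTR could have reversed. The count of 2 genes at least 2-fold higher was 1 at a 3-fold limit. The count of 2 lower genes was 0 at a 3-fold limit, 0 with an added 5 and 1 with an average FPKM of 5 or more, which leaves out Ebf2. A stricter limit, a larger added value or a higher minimum lowers a count by construction. The share over all genes at a 3-fold limit or at the higher minimum is not given, so counts at those settings have no background beside them. The median of the members ran from -0.57 to -0.16, and the ratios of Cebpb and Cebpd to Cebpa changed by 1.82 and 2.38 on the log2 scale with an added 1, against 1.85 and 2.45 without. Over all genes, the share of higher among called genes was 55.4%, and 27.5% at equal totals. The counts of 509 higher and 410 lower genes became 642 and 643 with an added 0.1, 287 and 168 with an added 5, 640 and 650 with none, and 307 and 811 at equal totals. For the lists, the counts that follow are of genes at least 2-fold higher or lower. Equal totals gave 10 lower adipocyte targets in place of 6, and 1 in place of 0 for STAT5. Equal totals gave 2 lower in place of 1 among KLF15-linked, brown adipocyte and restraining genes, and 2 in place of 0 among promoting factors. Of higher genes, they gave 6 in place of 8 for glucocorticoid response genes. For promoting factors and the STAT5 and KLF15-linked lists they gave 1 higher in place of 2. An added 5 gave 1 higher gene in place of 3 for PPARα targets, and 1 in place of 2 for promoting factors and the IL-6, STAT5 and KLF15-linked lists. With an added 0.1 or none, 1 PPAR partner in place of 0 was higher, and 2 KLF15-linked and 2 brown adipocyte genes in place of 1 were lower. With none, 1 promoting factor in place of 0 was lower. Across single genes and lists, 51 of 448 repeats moved, which means a count by over 1.5 times, a list median by over 1.5-fold, or a gene outside its counting interval. Small list medians could change sign within that tolerance, as that of the other C/EBP genes did from 0.07 to -0.26 at equal totals. No paired analysis was possible because each genotype had 1 library, and no library could be left out for the same reason. The values of Ppara and Ppargc1a are limited by depth, with 44 to 72 estimated fragments each.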
